A study of Mus musculus with 15 samples.

Results

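Tff3, Afp, Gpc3, Akr1c18, Golm1, Spink3 and Slpi are 7 genes known as markers of liver tumours or of foetal liver, and they were followed across the livers of 3 groups of mice. The members were chosen by name, as every probe other than a control whose gene symbol on the array is one of these 7. The choice was made with earlier results of these data known. All 7 were found, among 22032 gene symbols in all, with 2 probes for Gpc3 and 1 for each of the others.

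Liver RNA of CD1 male mice was measured on 15 single-colour microarrays, of which 4 belong to group C, 5 to T and 6 to G. Groups T and G had received DEN (diethylnitrosamine, a carcinogen that hepatocytes activate) at 25 µg per g of body weight on day 15 after birth, and group C had received saline. All mice then received plasmid DNA, 50 µg, into the liver by hydrodynamic gene delivery (HGD, a rapid tail vein injection of a large volume) weekly between weeks 28 and 34, before the livers were collected in week 35. The sample records give an age of 10 weeks instead. The plasmid was empty in groups C and T and carried HA-tagged Gas1 under the CAG promoter, which is active in most cell types, in group G. HGD reaches only some of the hepatocytes, so a liver of group G holds transfected and untransfected cells. Arrays C3 and C4 share an RNA code, as do arrays T4 and T5, and each pair was averaged, which left 3 mice of C, 4 of T and 6 of G. Mice are named here by group and number, with C3 and T4 for the averaged pairs.

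Gas1 itself is known for stopping the cell cycle before DNA synthesis. Its array signal was 6.53 ± 0.20 in C (SD, n = 3), 6.54 ± 0.09 in T (n = 4) and 6.61 ± 0.11 in G (n = 6), on the log2 scale of the normalized intensity, and did not tell G from T (adjusted p = 0.768, limma). It is not known whether this probe lies in the part of Gas1 that the plasmid carries, so that the signal does not show how much Gas1 RNA the plasmid gave. Albumin, the main plasma protein of hepatocytes, read between 17.58 and 18.25 in every mouse. Between 15707 and 29765 spots per array were well above background, and each of the 2 slides held arrays of all 3 groups. In RNA of a whole piece of liver, fewer cells of a type and less RNA per cell cannot be told apart.

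Liver tumours often switch on again genes that the foetal liver uses and the adult liver keeps low. Afp encodes alpha-fetoprotein, the albumin-like plasma protein of the foetus and a serum marker of hepatocellular carcinoma, and Gpc3 encodes a heparan sulphate proteoglycan held at the cell surface by a lipid anchor. Tff3 encodes a trefoil peptide that goblet cells secrete with mucus, Golm1 a membrane protein of the Golgi, and Akr1c18 an aldo-keto reductase that inactivates progesterone. Spink3 and Slpi encode secreted inhibitors of serine proteases, of the Kazal and the whey acidic protein type.

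The array reads each gene through a probe of 60 bases. The last 30 bases of 7 of the 8 probes are shown, since the values below rest on these stretches of each transcript, with positions in mm9 as the scanner files give them and with the polyadenylation signal AATAAA in capitals where it occurs.
Tff3 probe A_51_P456208 (chr17:31262279-31262338, minus strand): cctgaagAATAAAgacctcacagccaacac
Afp probe A_51_P510891 (chr5:90937781-90937840, plus strand): gtactttaaccacatggtgaagatgtccat
Gpc3 probe A_52_P23225 (chrX:49625740-49625799, minus strand): tagtggtaggatagattgtctttttgcaaa
Gpc3 probe A_55_P2165344 (chrX:49740892-49740951, minus strand): tacacaccatgctaagtaatttgtatatat
Golm1 probe A_51_P171200 (chr13:59736466-59736525, minus strand): tgactaaagacccttagaaatctgtgtcac
Akr1c18 probe A_55_P2163098 (chr13:4131895-4131954, minus strand): taattcAATAAAttttgcttcttttctata
Slpi probe A_52_P472324 (chr2:164179849-164179908, minus strand): gctcagcattcaccgatctttagggaaatg
The probes of Tff3 and Akr1c18 hold AATAAA in these bases, as do 8.16% of all 55681 probes. The match is a description of the letters.

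DEN and the empty plasmid were compared first with saline and the empty plasmid, T against C. Tff3, Afp, Akr1c18 and Gpc3 were called higher in T, that is, 4 of the 7 genes passed an adjusted p of 0.05 (limma, Benjamini-Hochberg over all gene symbols), and none was called lower. Over all gene symbols, 1.22% were called higher in T. All 7 differences were positive, with a median of 1.30 on the log2 scale beside 0.0061 for all genes. In 5 of the 7 genes every mouse of T was above every mouse of C, which was so for 10.5% of all genes. Since the 7 were chosen with earlier results of these data known, these shares describe them and are no independent support. The plot of single mice shows the 3 groups for each gene.

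**Figure D1:**
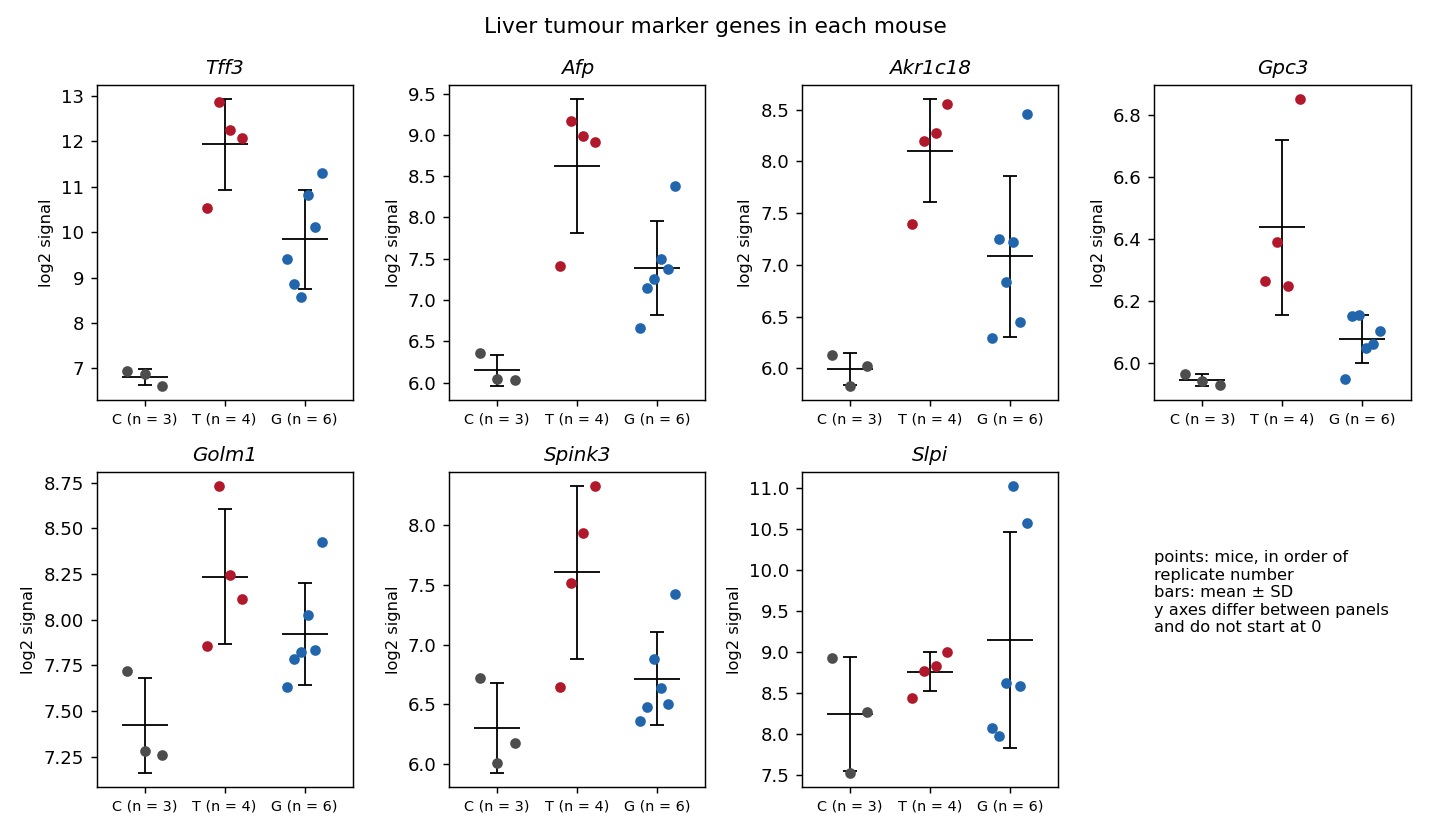
Log2 signal (normalized intensity, y axes that differ between panels and do not start at 0) of the 7 genes in each mouse of groups C (n = 3), T (n = 4) and G (n = 6). Points are mice, and the bars give the mean and SD of each group. Tff3 lay between 6.62 and 6.94 in C, between 10.53 and 12.87 in T and between 8.58 and 11.32 in G.

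Tff3 had the largest measured rise of all 22032 genes from C to T. Its log2 signal was 6.94, 6.87 and 6.62 in C1 to C3. In T1 to T4 it was 10.53, 12.87, 12.26 and 12.09. Group G ran from 8.58 to 11.32 with a median of 9.76. All mice that had received DEN lay above all mice of C, and T1 was the only mouse of T inside the range of G. The difference of T and C was 5.12 (SE 0.64, adjusted p = 0.00525), a 34.8-fold higher signal. Both signals include the offset of 50 that the background correction adds, so the folds of Tff3 depend on that setting. The probe was well above background on all 15 arrays, and its spot on the array T5 was marked as an outlier, so that the value of T4 rests on 1 array. With that spot kept, the difference was 5.15 (adjusted p = 0.00477).

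Trefoil peptides of the gut share a gene cluster with Tff3, and 12 other trefoil and mucus genes were read beside it. None of the 12 was well above background on every array of a group, and Tff2, a gastric trefoil peptide whose probe lies 16918 bases from that of Tff3, was the only one called, at 0.35 on the log2 scale (SE 0.08, adjusted p = 0.0490) between values near the background. Tff1, the other trefoil peptide of the cluster, differed by 0.02 (adjusted p = 0.835). Abcg1, a cholesterol transporter with a probe 9640 bases away, differed by 0.27 (adjusted p = 0.330). Of 8 markers of bile ducts, whose epithelium is known to make Tff3, none was called, only Spp1 was well above background on every array of a group, and the summed linear signal of the list ran from 695 to 743 in C, from 637 to 695 in T and from 563 to 831 in G. With only Spp1 well above background, that sum lies near the background. At an unadjusted p under 0.05 (limma), 3 of the 8 were lower in T and 0 higher. These were Krt7 (-0.22, adjusted p = 0.164), Krt19 (-0.30, adjusted p = 0.193) and Epcam (-0.23, adjusted p = 0.236). The part of bile ducts in the Tff3 signal was not tested.

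Afp read 6.36, 6.05 and 6.04 in C1 to C3, where its probe was not well above background. In T1 to T4 the log2 signal was 7.41, 9.17, 8.98 and 8.92, and group G ran from 6.66 to 8.38 with a median of 7.32. Every mouse given DEN was thus above every mouse of C, and T1 lay among the mice of G. The measured means differed by 2.47 between T and C (SE 0.41, adjusted p = 0.0156). The array carries this probe at 10 places, and 1 of 40 Afp spots was well above background in C, against 50 of 50 in T and 60 of 60 in G. Since C has only a limit, T was at least 4.78-fold higher, the mean of T against the weakest signal still called above background on the arrays of C. Over the spots of an array that were not marked as outliers, 8 to 10 of them, the SD of Afp was between 0.0393 and 0.139, which measures the technical spread between spots alone. Between mice the SD was 0.81 in T and 0.57 in G.

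Afp lies beside albumin in the genome, and none of its albumin relatives was called in any comparison. Alb, whose probe lies 36124 bases from that of Afp, differed by -0.37 between T and C (adjusted p = 0.155), and Afm, the afamin gene, by -0.09 (adjusted p = 0.846). Rassf6, a gene of the Ras association family 94545 bases away, was called lower in T by 0.40 on the log2 scale (adjusted p = 0.0415).

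The Afp promoter is a classical target of hepatocyte factors in the foetus and of the repressors Zhx2 and Zbtb20 after birth. Of 14 such regulators, 12 were well above background in a group and none was called between T and C, with a median difference of 0.10. Zbtb20 differed by 0.37 (SE 0.11, adjusted p = 0.101) and Foxa3 by 0.38 (adjusted p = 0.187). Zhx2 was not well above background in any group, and its difference was -0.07 (adjusted p = 0.490). Of 3 other genes linked to Zhx2 in adult liver, none was called. H19 differed by 2.50 (SE 1.05, adjusted p = 0.205), the lipase gene Lpl by 1.09 (adjusted p = 0.104) and the elongase gene Elovl3 by -1.50 (adjusted p = 0.121).

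The 250 bases upstream of the start of Afp and of Akr1c18, which varied most like Afp over the mice among the members with such an entry, are shown as RefSeq gives them for GRCm38.p6, with the matches of 2 motifs in capitals.
Afp (chr5:90490464-90490713, plus strand): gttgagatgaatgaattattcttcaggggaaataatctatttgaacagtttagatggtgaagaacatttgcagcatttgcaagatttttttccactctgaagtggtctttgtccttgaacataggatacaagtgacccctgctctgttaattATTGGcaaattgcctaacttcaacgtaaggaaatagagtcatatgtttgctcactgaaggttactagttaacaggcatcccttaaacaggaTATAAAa
Akr1c18 (chr13:4150647-4150896, minus strand): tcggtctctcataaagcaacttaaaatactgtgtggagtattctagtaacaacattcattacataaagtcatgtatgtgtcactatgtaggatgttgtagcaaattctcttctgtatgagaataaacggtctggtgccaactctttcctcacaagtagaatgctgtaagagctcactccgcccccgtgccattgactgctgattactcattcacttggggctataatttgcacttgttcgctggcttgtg
Searched on both strands, the Afp stretch holds the TATA motif TATAAA, which 12.4% of 32851 promoters of this length hold, and the CCAAT motif, read as ATTGG (33.8%). The matches do not overlap, and their first bases lie 7 and 98 bases before the start. The Akr1c18 stretch holds neither of them, and neither stretch holds the FOXA motif TGTTTAC (3.17%) or the HNF4 motif CAAAGTCCA (0.384%). Of the 5 members matched to a promoter, Golm1 holds TATAAA and CCAAT, Gpc3 holds CCAAT and Slpi none of the 4 motifs. These are matches of letters alone.

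Gpc3 is read by 2 probes that gave different answers. The probe A_52_P23225 read 5.95, 5.95 and 5.97 in C1 to C3 and 6.59, 6.68, 6.66 and 7.75 in T1 to T4. It was well above background on 0 of 4 arrays of C, 5 of 5 of T and 4 of 6 of G. T was at least 1.48-fold higher than C by this probe (log2 difference of the measured means 0.96, SE 0.22, adjusted p = 0.0451 over 29522 probes). The probe A_55_P2165344 reached that level on no array and differed by 0.02 (adjusted p = 0.891). As the mean of both probes the gene differed by 0.49 (SE 0.12, adjusted p = 0.0484), and T4 was its highest mouse. Of 5 other glypicans, 2 were well above background in a group and none was called. Gpc1, the one with the smallest p, differed by -1.002 (adjusted p = 0.0920).

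**Figure D2:**
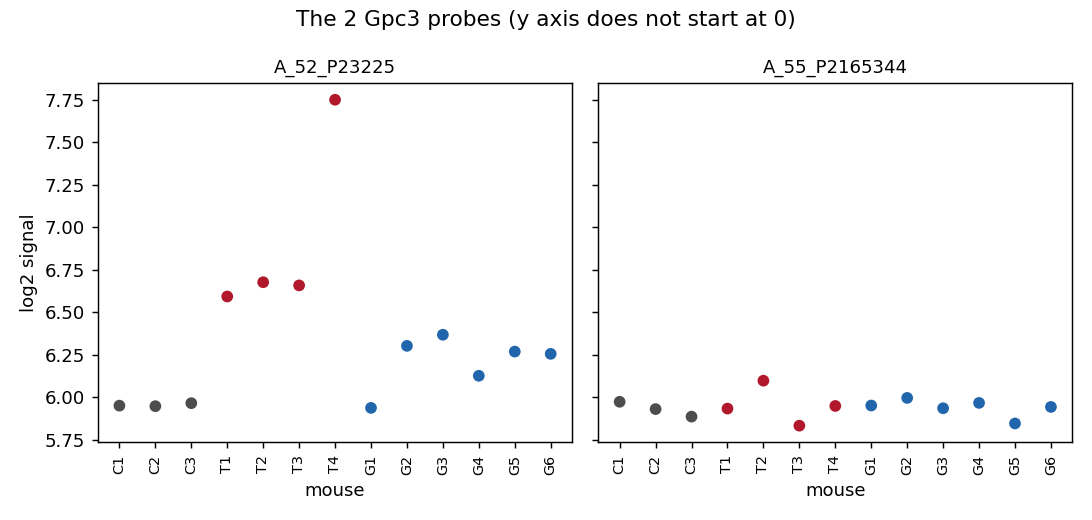
Log2 signal (y axis that does not start at 0) of the 2 Gpc3 probes in each mouse (x axis), with C in grey, T in red and G in blue. The probe A_52_P23225 rose from at most 5.97 in C to between 6.59 and 7.75 in T, while the other probe stayed between 5.83 and 6.10 in all mice.

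Golm1 read 7.72, 7.28 and 7.26 in C1 to C3 and 7.85, 8.73, 8.24 and 8.11 in T1 to T4. Every mouse of T was above every mouse of C, but the gene missed the threshold, with a difference of 0.81 (SE 0.21, adjusted p = 0.0596). Its probe was well above background on each of the 15 arrays. Of 7 other proteins of Golgi membranes, Golgb1, which encodes the tether giantin, was called higher in T by 0.38 (adjusted p = 0.0441), and the stacking protein gene Gorasp1 differed by 0.29 (adjusted p = 0.0649). Naa35, whose probe lies 466 bases from that of Golm1, differed by -0.33 (adjusted p = 0.155).

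Akr1c18 read 6.13, 5.83 and 6.02 in C1 to C3 and 7.39, 8.20, 8.27 and 8.55 in T1 to T4. No array of C and every array of T and G had this probe well above background. T was at least 3.35-fold higher than C (log2 difference of the measured means 2.11, SE 0.42, adjusted p = 0.0278). Of 11 other members of its 1b and 1c family of aldo-keto reductases, 8 were well above background in a group and none was called between T and C, with a median difference of -0.06. Akr1c14, whose probe lies 42512 bases from that of Akr1c18, differed by 0.23 (adjusted p = 0.597) and Akr1c13 by -0.22 (adjusted p = 0.333).

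Of the protease inhibitors, Spink3 read 6.72, 6.01 and 6.18 in C1 to C3 and 6.64, 7.52, 7.94 and 8.33 in T1 to T4. T1 lay below C1, and the other mice of T lay above all of C. The difference was 1.30 (SE 0.35, adjusted p = 0.0665), and the probe was well above background on 1 of 4 arrays of C and 5 of 5 of T. Spink3 is also a main product of the exocrine pancreas, and 10 markers of that tissue were read beside it. None was called, only Ctrb1, a chymotrypsinogen, was well above background in a group (T and C differed by -0.07), and the summed linear signal of the list was 670 to 691 in C, 635 to 690 in T and 666 to 694 in G. Of 9 other Kazal inhibitors none was well above background in a group, and none was called.

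Slpi read 8.92, 7.53 and 8.27 in C1 to C3 and 8.44, 8.77, 8.83 and 9.002 in T1 to T4. The groups overlapped, and the difference of 0.52 (SE 0.67, adjusted p = 0.723) was smaller than its error. Wfdc15b, another secreted protein of the whey acidic protein type, was called higher in T by 1.46 (SE 0.30, adjusted p = 0.0298), the only one of 11 relatives of Slpi. Of the 11, 5 were well above background in a group. Of 30 other genes linked to liver tumours or foetal liver, 14 were well above background in a group. Tspan8, a tetraspanin, was higher in T by 1.42 (SE 0.20, adjusted p = 0.00773) and Scd2, a fatty acid desaturase, by 1.75 (SE 0.38, adjusted p = 0.0337). The other 28 were not called, with a median of 0.02 for the list.

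Markers of other cells of the liver were read beside these values. Of 10 hepatocyte markers, Ttr, which encodes transthyretin, fell by 1.01 on the log2 scale in T (adjusted p = 0.00594) and Ass1, an enzyme of the urea cycle, fell by 0.60 (adjusted p = 0.0133). At an unadjusted p under 0.05 (limma), 4 of the 10 were lower in T and 1 was higher, Apoa1 (0.54, adjusted p = 0.0686). Of 8 macrophage markers 1 was called, Adgre1, listed as Emr1 on the array, at 0.31 (adjusted p = 0.0262). Unadjusted, 3 of the 8 were higher and 1 was lower, Cd68 (-0.25, adjusted p = 0.101). Of 8 neutrophil markers none was called and 2 were well above background in a group. These were S100a9, a calcium-binding protein of neutrophils, which differed by 1.36 (adjusted p = 0.130), and Elane, which differed by -0.02 (adjusted p = 0.962). The median of the neutrophil list was 0.01, and Ngp differed by -0.31 (adjusted p = 0.553). At an unadjusted p under 0.05 (limma), 2 of the 8 were higher in T and 0 lower. Of 10 proliferation markers none was called, with a median of 0.04, and only 4 of them were well above background in a group. The summed linear signal was 866779 to 942060 in C and 678682 to 843169 in T for hepatocytes, 1799 to 2493 and 2134 to 2809 for macrophages, and 676 to 869 and 766 to 1799 for neutrophils. The part of these cells in the differences of the 7 genes was not tested.

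The call of Tff3 held without any one mouse, while the number of genes called did not. Without C2 or without T3 only Tff3 was called, without C1, C3 or T2 only Tff3 and Afp, and without T1 or without G6, which shares the estimate of the spread, 6 genes were called, Golm1 and Spink3 with the 4. Over all genes, the number called without 1 mouse ran from 89 (without T3) to 761 (without T1), beside 525 with all mice. The call of Gpc3 was lost under 18 of 30 alternatives. Cyclic loess in place of quantile normalization left only Tff3 (adjusted p = 0.0176, Afp 0.0562, Akr1c18 0.0936), and called 185 of all 22032 genes. The methods' t-test called none of the 7 after Benjamini-Hochberg adjustment (Tff3 adjusted p = 0.107 with equal variances and 0.242 with unequal variances). In both forms it called 0 of all 22000 genes tested. The signal that the scanner software had corrected itself gave a difference of 6.45 for Tff3 (limma, adjusted p = 0.00153), whose probe was well above background in C. It gave 5.05 for Afp and 5.19 for Akr1c18, both against signals of C that were not well above background and so are only a limit. Within slide 1, which held 2 arrays each of C and T, Tff3 differed by 5.69 and Afp by 2.99, and within slide 2, with 2 of C and 3 of T, by 4.65 and 2.24, so that the direction was the same in both, with adjusted p of 0.0701 and 0.0457 in slide 1 and of 0.0532 and 0.0885 in slide 2.

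The Gas1 plasmid was compared next with the empty plasmid after DEN, G against T. The mean of 6 of the 7 genes was lower in G, and 0 of 7 passed the adjusted threshold (limma), where 0.0999% of all genes were called lower. At an unadjusted p under 0.05, Tff3, Afp, Gpc3, Akr1c18 and Spink3 were lower, 5 of 7 genes, beside 6.73% of all genes. The median difference over the 7 genes was -0.89, beside -0.0087 for all genes. T is also part of the comparison with C, so that a high value in T enters both comparisons with opposite sign.

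Tff3 had the largest difference, -2.08 (SE 0.54, adjusted p = 0.153), with 11.93 ± 1.00 in T (SD, n = 4) and 9.85 ± 1.09 in G (n = 6). The groups overlapped, since G4 and G6 lay above T1. Afp differed by -1.23 (SE 0.35, adjusted p = 0.193), with 8.62 ± 0.81 in T and 7.39 ± 0.57 in G. For Akr1c18 the difference was -1.02 (SE 0.36, adjusted p = 0.313), with 8.10 ± 0.50 in T and 7.09 ± 0.78 in G. The mice of G ran from 6.29 to 8.46 with a median of 7.03 for Akr1c18, and G6 alone lay above T1. Tff3 ranked at 9, Afp at 20 and Akr1c18 at 32 of 22032 genes ordered from the most negative difference.

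Gpc3 was the only one of the 7 genes in which every mouse of G was below every mouse of T, which was so for 2.03% of all genes. Its difference was -0.36 (SE 0.10, adjusted p = 0.173) as a mean of both probes. By the probe A_52_P23225 the mice of G read between 5.94 and 6.37, and the difference of G and T was -0.71 (SE 0.19, adjusted p = 0.159). The membrane protein gene Golm1 ran from 7.63 to 8.43 in G with a median of 7.83, and differed by -0.31 (adjusted p = 0.556). Spink3 ran from 6.36 to 7.42 in G with a median of 6.57, and differed by -0.89 (SE 0.29, adjusted p = 0.276). In both genes G6 was the highest mouse of G, and the ranges of G and T overlapped.

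Slpi was the only one of the 7 with a higher mean in G, by 0.38 (SE 0.57, adjusted p = 0.857). In G1 to G6 it read 8.08, 7.98, 8.63, 11.02, 8.58 and 10.57. G4 and G6 were above every mouse of C and T, and the other 4 mice of G lay within the range of C. Within slide 1, which held G3, G4 and G6, the difference of G and T was 1.19, and within slide 2 it was -0.55. Neutrophils and macrophages also make Slpi. The summed signal of macrophage markers was 2127 to 3133 in G, beside 1799 to 2493 in C and 2134 to 2809 in T. That of neutrophil markers was 673 to 871 in G, beside 676 to 869 in C and 766 to 1799 in T. Only 2 of the 8 neutrophil markers were well above background on every array of a group, so that their sum lies near the background. The part of these cells in Slpi was not tested.

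None of the genes listed beside the 7 was called between G and T. Those with the smallest p included Tspan8 (-0.90, adjusted p = 0.0646), Foxa3 (-0.59, adjusted p = 0.106) and Wfdc15b (-1.12, adjusted p = 0.111). Ttr (0.62, adjusted p = 0.0576) and the aldo-keto reductase gene Akr1c19 (1.09, adjusted p = 0.0808) were also among them. Without T1, Afp was called lower in G (-1.63, adjusted p = 0.0289), the only call among the 7 under any alternative.

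**Figure D3:**
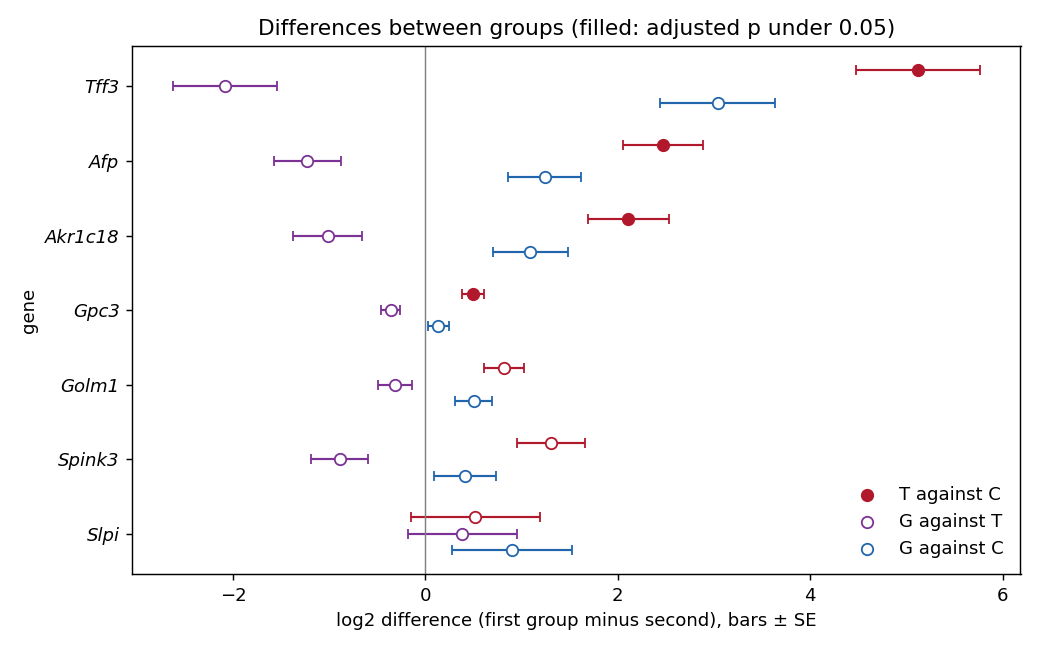
Log2 differences (x axis) of the 7 genes (y axis) for each pair of groups, the second named subtracted from the first, with bars of 1 SE. Filled points passed an adjusted p of 0.05, which were Tff3, Afp, Akr1c18 and Gpc3 for T against C and none for the comparisons of G.

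The livers of group G were last set against the saline livers, G against C. All 7 differences were positive with a median of 0.90, beside -0.0030 for all genes, and 0 of 7 passed (limma), where 0.177% of all genes were called higher. At an unadjusted p under 0.05, Tff3, Afp, Akr1c18 and Golm1 were higher, 4 of 7, beside 6.17% of all genes. In Tff3, Afp and Akr1c18 every mouse of G was above every mouse of C, which was so for 2.85% of all genes.

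Tff3 differed by 3.04 (SE 0.60, adjusted p = 0.0511), an 8.22-fold higher signal in G, rank 2 of all measured differences. It passed without G6 (adjusted p = 0.0431) or without T1 (0.0336), and also with only the probes that were well above background (0.0259). Afp was at least 2.04-fold higher in G than in C (log2 difference of the measured means 1.24, SE 0.38, adjusted p = 0.185), and Akr1c18 at least 1.66-fold (1.09, SE 0.39, adjusted p = 0.247). Golm1 differed by 0.50 (SE 0.19, adjusted p = 0.291), Slpi by 0.90 (SE 0.62, adjusted p = 0.583) and Spink3 by 0.41 (SE 0.32, adjusted p = 0.640). Gpc3 differed by 0.13 (SE 0.11, adjusted p = 0.657), with no fold by its brighter probe, since neither group was above the limit as a mean. Of the genes listed beside the 7, the aldo-keto reductase gene Akr1b8 alone was called, higher in G by 0.46 (SE 0.08, adjusted p = 0.0403).

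For Tff3, Afp, Akr1c18, Gpc3, Golm1 and Spink3 the order of the group means was T, then G, then C. For Slpi it was G, then T, then C, and its neighbours in that order did not differ beyond their spread. For no member did G and T differ beyond the adjusted threshold.

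Tff3 differed widely between the livers of a group that had received DEN. The SD of Tff3 between mice was 1.00 in T and 1.09 in G, larger than that of 99.8% and 99.7% of all genes. The median SD of all genes was 0.0895 in T and 0.109 in G. Only 10478 of the 22032 genes were well above background on every array of a group. The shares and medians given here also count the others, and shares among the 10478 alone were not computed. In C the SD of Tff3 was 0.17, larger than that of 76.3% of genes. The SD of Gpc3 was 0.0184 in C and 0.0775 in G, larger than that of 3.04% and 28.6% of genes. These are SDs of signals near the background. Of its probes, A_55_P2165344 was well above background on no array. The probe A_52_P23225 was so on 0 of 4 arrays of C and 4 of 6 of G. T1 was the lowest mouse of T in 6 of the 7 genes and T3 in Gpc3. G6 was the highest mouse of G in 5 of the 7 and G1 the lowest in 5. C1 was the highest mouse of C in all 7. T1 and C1 lay on slide 2. The 2 arrays of C3 differed by at most 0.19 and those of T4 by at most 0.16 in any of the genes, Tff3 of T4 excepted, which had 1 value.

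**Figure D4:**
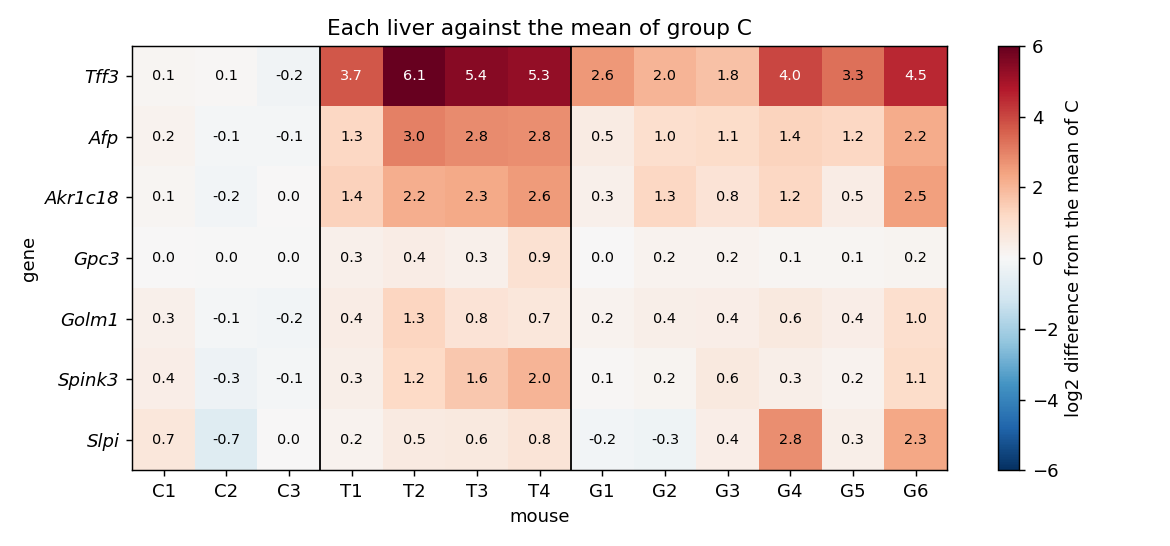
Difference of each mouse (x axis) from the mean of group C for the 7 genes (y axis), as log2 values in the cells and as colour, with red above and blue below that mean. T1 was the lowest mouse of T in 6 of the 7 genes and G6 the highest mouse of G in 5.

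Whether the genes were high in the same livers was examined within group G, where the difference between groups does not enter. The slide does enter, with G3, G4 and G6 on slide 1 and G1, G2 and G5 on slide 2. In G each member had a higher mean on slide 1, for example Afp 7.72 against 7.06 and Golm1 8.09 against 7.75. The part of the slide in the correlations was not tested. Over the 6 mice, 20 of 21 pairs of genes had a positive Pearson r, with a median of 0.739 and a range of -0.260 to 0.980. Over all pairs of 9786 detected genes in the same livers, 53.3% were positive, with a median r of 0.0498, and 7.24% had an r at or above the median of the 21 pairs. Afp and Golm1 had the highest, r = 0.980 (two-sided exact permutation p = 0.00139, the smallest that 6 mice allow, adjusted p = 0.0292 over the 21 pairs) and a Spearman coefficient of 1 (exact permutation p = 0.00278, adjusted p = 0.0583). The 6 livers thus had the same order for both genes, and r was 0.895 without the 2 mice farthest from the median of Afp. No other pair passed the adjustment, and 0 of the 21 passed when the arrays were scaled by their medians. For Afp with Akr1c18, r = 0.891 (exact permutation p = 0.0292, adjusted p = 0.113, Spearman coefficient 0.60, exact permutation p = 0.242, adjusted p = 0.423) became -0.12 without the 2 farthest mice, so that this relation rests on those mice. For Tff3 with Afp, r was 0.739 (exact permutation p = 0.0694, adjusted p = 0.133, Spearman coefficient 0.77, exact permutation p = 0.103, adjusted p = 0.270). It was 0.655 without the 2 mice farthest from the median of Tff3. Gpc3 had the only negative r, with Tff3.

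Over all 13 mice, the genes most like Tff3 among 9786 detected genes were Nt5c, a nucleotidase (Pearson r = 0.963), Cd63, a tetraspanin of late endosomes (0.961), Afp (0.950), Scd2 (0.941) and Arhgap22, a GTPase-activating protein (0.924). Those most like Afp were Cd63 (0.981), Arhgap22 (0.971), Nt5c (0.960), Tff3 (0.950) and Akr1c18 (0.948). The points share the difference between the groups, and within the 10 mice that had received DEN the r of Cd63 was 0.924 with Tff3 and 0.970 with Afp. Cd63 read 7.99 in C, 9.98 in T and 9.08 in G on average, and Nt5c read 9.38, 9.98 and 9.69. Of the other members, Golm1 had an r of 0.922 with Afp, Spink3 of 0.906, Gpc3 of 0.762 and Slpi of 0.419. Slpi was thus the member least like Afp, and also the least like Tff3 (r = 0.458).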

How the data were processed

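Total liver RNA was labelled with Cy3 and hybridised to Agilent mouse arrays. The scanner output deposited by the authors gives spot and background intensity from Feature Extraction (grid placement 10.7.3.1 per the file headers), not normalized between arrays, and a further deposited set holds log2 values after normexp and quantile normalization by the authors. The deposited intensity was corrected here with normexp (offset 50, all spots), spots with an outlier flag were set to missing, and the 59305 spots that are not controls were quantile normalized on the log2 scale. Of all spots, 99.2% lay within 0.05 of the authors' values. Spots were averaged per probe, and probes were centred and averaged per symbol (22032 symbols, 29522 probes).

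Arrays of 1 RNA code were averaged: their log2 differences had an SD, across the 8465 genes that every array detected, of 0.146 in C and 0.143 in T, against at least 0.291 and 0.235 for other pairs of the group. Where nothing says that samples came from separate mice, p-values measure only the spread between these samples.

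With limma 3.58.1 (R 4.3.3), 1 mean per group was fitted over the 13 mice (eBayes without trend), with Benjamini-Hochberg adjustment over all symbols and a threshold of 0.05. The number of arrays limits the precision. A gene was called detected where a probe was well above background on every array of a group. Named are all 7 members, for each gene list the genes with the smallest p and those called, and the 5 genes most like Tff3 and Afp. Among the genes with the smallest p of a list, 1 is not reported here. The members and lists were chosen with earlier results of these data known. Probe positions are those of mm9 in the files, and exons were not analysed here. Alternatives are given at the end. The sample records name a TRIzol extraction and the study's methods a spin column kit.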

Additional observations from a re-analysis of the deposited data

Results flagged for a closer look

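Of 14 sets of values, the 7 genes in groups T and G, 1 held a mouse far from the others. Afp in T1 read 7.41 on the log2 scale, while the nearest other mouse of T read 8.92, a gap of 0.857 of the range of the group, above Dixon's limit for 4 samples. Chance alone marks about 1 in 20 such groups. T1 was also the lowest mouse of T in 5 other genes of the 7.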

How the results depend on the processing

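The 7 genes were recomputed under 30 alternatives in each comparison. For T against C all 210 differences stayed positive, and 157 kept their side of the threshold, while 39 no longer passed and 14 newly passed. The number of genes called in T against C was 1 with cyclic loess, 1 within slide 1, 0 within slide 2, 0 with the methods' t-test with equal variances and 0 with Welch's form of it after Benjamini-Hochberg adjustment (6 of 7 at an unadjusted p of 0.05 with either), and 1 to 6 without each mouse in turn. Over all genes, cyclic loess called 185, slide 1 48, slide 2 17 and the t-test in both forms 0. The slides leave fewer arrays, and the cause of the other losses was not tested. For G against T, 208 of 210 values kept direction and side, and the count was 0 to 1 without each mouse in turn and 0 in all other settings, with 4 and 3 genes at an unadjusted p of 0.05 by the methods' t-test in both forms. For G against C, 201 of 210 did so, and the count was 1, Tff3, with only probes well above background, with the 15 arrays as separate mice, with the RNA code as a random block, with the slide as a term beside that block and with the brightest probe, and 0 to 1 without each mouse in turn. It was 0 by the methods' t-test in both forms, with 4 genes at an unadjusted p of 0.05. Over all genes, the t-test with equal variances called 5 for G against T and 1 for G against C, and Welch's form 1 and 0. Within slide 2, Slpi turned to -0.55 for G against T and to -0.41 for G against C, and Spink3 to -0.027 for G against C. Of the pairs of genes in G, 0 passed with median scaling and 0 to 0 without each mouse in turn, where 5 mice do not allow a single pair to pass. Against C, the scanner-corrected signal moved the median of all genes to -0.40 in T and -0.30 in G, and median scaling moved it to 0.12 in T. Relative to those medians, Tff3 differed between T and C by 6.85 and 5.56 and Afp by 5.45 and 2.58.

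Same-numbered mice of different groups had deviations from the group means that correlated between -0.278 and 0.250, with a median of 0.086. Of 10 such pairs, 3 were over 0.1. For mice of different numbers the median was 0.0074, and 7 of 44 pairs were over 0.1. So few pairs cannot show whether the replicate numbers pair the mice. With the replicate block the number called was 3 for T against C (Gpc3 was lost), 0 for G against T and 0 for G against C. Depth is limited for Afp, Akr1c18 and Gpc3, which were not well above background in C.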
